A study of Mus musculus with 12 samples.

Results

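The collagen genes of mouse bone marrow stromal cells were examined after 14 days of adipogenic induction with vehicle, rosiglitazone or tributyltin. Every row of the deposited count table whose symbol has the form Col, a type number, a and a chain number was taken, which gave 44 collagen genes among 23955 symbols. Membership of a structural class came from textbook knowledge of the chains: 11 fibrillar, 6 basement membrane, 3 network, 9 fibril-associated, 6 beaded filament, 2 multiplexin, 4 transmembrane and 1 anchoring fibril gene, and 2 that belong to none of these. The cells were a commercial stock of mesenchymal stem cells from female C57BL/6 mice at passage 9 to 10. The cells of all 12 libraries received 5 ug/mL insulin, 1 uM dexamethasone and 0.5 mM isobutylmethylxanthine, the usual cocktail that starts fat cell formation, so the vehicle cells were induced too. The vehicle group received 0.1% DMSO, the ROSI group 500 nM rosiglitazone, a drug that activates the fat cell receptor PPARγ, and the TBT group 50 nM tributyltin, an organotin compound that binds RXR and PPARγ. There were 4 libraries per group, and the 2 ligands were given at different doses. Whether the 4 libraries of a treatment stem from different cultures or mice is not stated, and the p-values therefore cover only the spread from library to library, which could be technical.

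Collagens are proteins of 3 chains wound into a triple helix. Fibrillar collagens (types I, II, III, V, XI, XXIV and XXVII) form or regulate the banded fibrils of connective tissue, and fibril-associated collagens sit on the surface of those fibrils. Type IV chains build the sheet-like basement membrane that surrounds each fat cell, type VIII and X chains build hexagonal networks, and type VI chains build beaded filaments that are abundant in adipose tissue. Stromal precursors secrete a matrix rich in fibrillar collagen, and maturing fat cells lie in a matrix in which basement membrane and type VI collagen are prominent.

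Libraries held between 4027152 and 7474654 counts. A level below is in CPM, counts per 1000000 counts of the library, with the library size scaled by TMM, and values are listed in the order of replicates 1 to 4. TBT replicate 4 and the other 3 TBT libraries differed: the mean correlation of replicate 4 with the other TBT libraries was 0.953, below its correlation of 0.961 with the DMSO libraries, and Rn45s, the ribosomal RNA precursor, took 6.85% of its counts, within the 1.36% to 9.27% of the DMSO and ROSI libraries, against 0.399% to 0.670% in TBT replicates 1 to 3. In TBT replicates 1 to 3 the median log2 deviation from the mean of all libraries differed between the 20% of genes highest and the 20% lowest in GC content by -0.557, -0.448 and -0.27, against 0.105 in TBT replicate 4 and -0.025 to 0.431 in the DMSO and ROSI libraries. On both measures TBT replicates 1 to 3 lay outside the range of the other 9 libraries. The tested collagens had a median transcript GC content of 55.7% against 49.6% over all tested genes, so results that involve TBT are also given after a correction for GC content or without TBT replicate 4 where either ends a call. Summed CPM of 1504 sensory receptor genes, which stromal cells are not known to use, ran from 290 to 750 in DMSO, 63.4 to 73.4 in ROSI and 121 to 209 in TBT.

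Of the 44 collagen genes, 29 had enough counts to be tested: 9 fibrillar, 6 basement membrane, 2 network, 5 fibril-associated, 3 beaded filament and 2 multiplexin genes, and 1 each of the transmembrane and anchoring fibril genes. The filter was met in all 12 libraries by 22 of them. The other 7 were low: Col24a1 and Col9a3 met it in 0 of 4 ROSI libraries, Col15a1 in 1 of 4 DMSO libraries, Col4a4 in 4 DMSO, 1 ROSI and 0 TBT libraries, Col23a1 in 3, 1 and 1, and Col4a3 and Col4a6 in all but a few. The 15 genes that were not tested had between 1 and 81 counts over all libraries. Their mean CPM was lower in ROSI than in DMSO for all 15 and lower in TBT than in DMSO for 12, and the sensory receptor genes shared this order of groups. Whether the same background contributes to both was not tested. With no filter on low counts, the median log2 fold change of all 22434 genes was -0.179 in ROSI and -0.215 in TBT against DMSO. With the filter it was 0.009 and -0.011. The direction of the untested collagens is therefore no result about collagens.

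Per kb of transcript, Col1a2, the second chain of type I collagen, stood first in DMSO at 210 ± 14.2 CPM per kb (mean ± SD, n = 4), close to the fibril-associated Col12a1 at 200.5 ± 38.3. Their spreads overlapped. The beaded filament chain Col6a1 followed at 135 ± 10.9, then Col3a1 at 86.5 ± 20.9, Col6a2 at 58.6 ± 3.44 and the basement membrane chain Col4a1 at 34.2 ± 1.52. The order differed in ROSI, where Col12a1 stood at rank 3 with 55.1 ± 12.0 CPM per kb, Col3a1 moved from rank 4 to rank 7, and Col6a3 from rank 12 to rank 6. In TBT the ranks of the first 7 genes were those of DMSO. The 3 most abundant collagens held 60.3% of all collagen counts, so sums over the family rest on few genes.

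In ROSI against DMSO, 14 collagens fell and 2 rose among the 29 tested, 55.2% against 22.6% of all 12323 genes tested (12.6% lower and 10% higher). Their median log2 fold change was -0.60, while that of all genes was 0.01. Values with ± and an adjusted p are log2 fold changes ± SE, first group over the second, from edgeR's quasi-likelihood test with Benjamini-Hochberg adjustment over all genes tested, and a gene rose or fell where the adjusted p was under 0.05. The falls were in the fibrillar (7 of 9), fibril-associated (3 of 5), basement membrane (2 of 6), network (1 of 2) and beaded filament (1 of 3) classes, and the rises were 1 beaded filament and 1 multiplexin chain. In 18 of 29 the ROSI and DMSO libraries did not overlap, against 28.3% of all genes. In TBT against DMSO, 6 collagens fell and 1 rose, 24.1% against 15.2% of all genes (7.03% lower and 8.22% higher), with a median of -0.35 against -0.01. Libraries of TBT and DMSO did not overlap in 11 of 29, against 15.7% of all genes. In TBT against ROSI, 10 were higher and 3 lower in TBT, 44.8% against 23.9% of all genes (12.8% higher and 11.1% lower), with a median of 0.24 against 0.02. Libraries did not overlap in 9 of 29, against 20.7% of all genes. The comparisons of ROSI and TBT with vehicle share the 4 DMSO libraries and are not independent of each other. In these bulk samples, fewer cells of a type and less RNA per cell cannot be told apart.

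**Figure D1:**
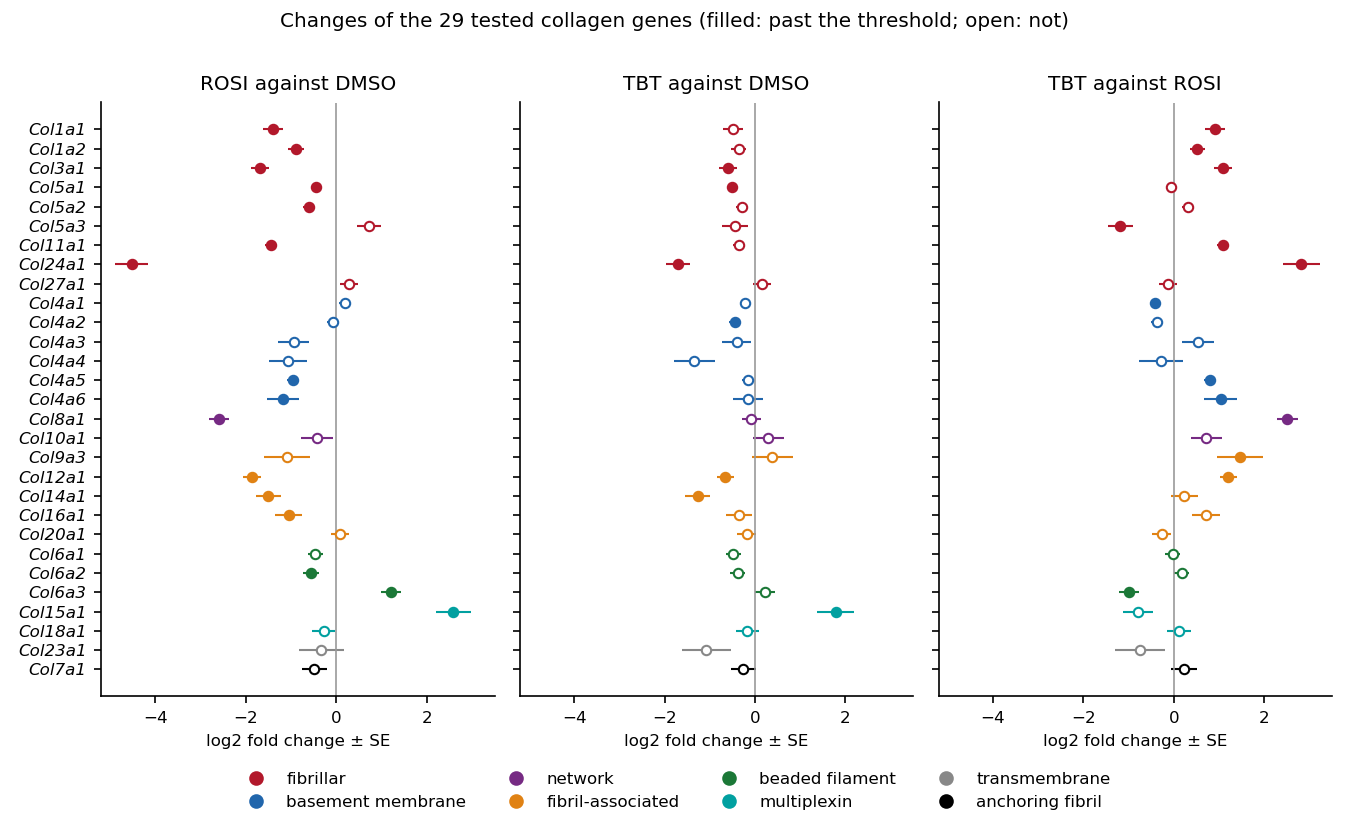
Log2 fold changes ± SE (x axis) of the 29 tested collagen genes (y axis) in the 3 comparisons; colour marks the class, filled circles passed the threshold and open circles did not. The ROSI panel holds 14 filled circles left of 0, among them Col24a1 at -4.53, and 2 right of it, Col15a1 and Col6a3.

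The sequences before the start of 5 of these genes are shown because they fell (Col3a1, Col11a1, Col24a1, Col8a1) or rose (Col6a3) in ROSI with calls that held under every alternative in which they were tested, and because their RefSeq start matched the start of a GENCODE transcript. Each is the 200 bases before the RefSeq start in GRCm38.p6, 5′ to 3′ on the gene's strand, and these are upstream sequences in which no binding was measured. Capitals mark matches, on either strand, to TATAAA (the TATA box), CCAAT (the CCAAT box) or GGGCGG (the GC box). The motifs and the genes shown were chosen after the results were known.
Col3a1, chr1:45311338-45311537, plus strand: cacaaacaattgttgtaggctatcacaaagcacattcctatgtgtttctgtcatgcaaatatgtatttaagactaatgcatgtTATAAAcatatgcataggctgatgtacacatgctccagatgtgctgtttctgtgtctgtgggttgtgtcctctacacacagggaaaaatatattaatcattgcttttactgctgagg
Col11a1, chr3:114030340-114030539, plus strand: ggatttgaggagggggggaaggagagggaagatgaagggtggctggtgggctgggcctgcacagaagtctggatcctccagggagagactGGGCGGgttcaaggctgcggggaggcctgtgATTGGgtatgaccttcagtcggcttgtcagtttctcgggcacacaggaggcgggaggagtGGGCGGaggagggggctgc
Col24a1, chr3:145292272-145292471, plus strand: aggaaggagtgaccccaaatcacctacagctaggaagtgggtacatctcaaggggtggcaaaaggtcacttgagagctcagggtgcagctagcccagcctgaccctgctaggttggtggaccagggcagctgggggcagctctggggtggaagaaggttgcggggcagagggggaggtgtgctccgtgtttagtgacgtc
Col8a1, chr16:57754738-57754937, minus strand: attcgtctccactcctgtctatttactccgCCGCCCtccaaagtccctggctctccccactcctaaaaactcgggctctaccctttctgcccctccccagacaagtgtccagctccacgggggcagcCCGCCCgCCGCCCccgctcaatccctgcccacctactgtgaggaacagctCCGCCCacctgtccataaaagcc
Col6a3, chr1:90843972-90844171, minus strand: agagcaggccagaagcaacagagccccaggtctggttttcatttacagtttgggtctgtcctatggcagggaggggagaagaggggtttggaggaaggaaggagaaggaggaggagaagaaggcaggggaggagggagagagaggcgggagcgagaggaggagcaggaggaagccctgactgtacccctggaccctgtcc

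The Col8a1 stretch held 4 GC boxes that do not overlap, all on the opposite strand, and that of Col11a1 held 2 GC boxes and a CCAAT box on the opposite strand. The Col3a1 stretch held a TATAAA that begins at position -117, counted with -1 as the last base before the start. Those of Col24a1 and Col6a3 held none of the 3 motifs. Over windows from 250 bases before to 50 after the start, a GC box was in 60.5% of 38 windows of 35 collagen genes and in 35.7% of 32851 windows of all genes. CCAAT was in 34.2% against 37.4%, and TATAAA in 13.2% against 13.6%. The direct repeat that PPARγ with RXR is known to bind, AGGTCA and again AGGTCA with 1 base between, was in 0% of collagen windows and 0.0396% of all windows. The interferon response core, GAAA and again GAAA with 2 bases between, was in 0% against 3.44%. These matches describe the letters of the windows only.

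Among the fibrillar collagens, both chains of type I and the single chain of type III fell in ROSI. Col1a2 stood at 1135, 1092, 1039 and 1218 CPM in DMSO, 555, 422, 743 and 707 in ROSI and 1025, 837, 959.9 and 666 in TBT. All 4 ROSI libraries lay below all 4 DMSO libraries. The log2 fold change in ROSI was -0.89 ± 0.17 (adjusted p = 0.00117), a 1.85-fold lower level. Col1a1, the other type I chain, averaged 147 ± 17.5 CPM in DMSO against 56.0 ± 17.9 in ROSI and 105 ± 27.1 in TBT, and fell in ROSI (-1.39 ± 0.22, adjusted p = 0.0002). Levels of Col3a1 were 466, 388, 422 and 648 CPM in the DMSO libraries, 129, 110.1, 176 and 181 in ROSI and 388, 316, 339.9 and 221 in TBT. Type III collagen, which shares fibrils with type I in soft tissue, was 3.23-fold lower in ROSI (-1.69 ± 0.20, adjusted p = 1.28e-05), and its ROSI libraries did not overlap with either other group.

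In TBT against DMSO, Col1a1 was at -0.48 ± 0.22 (adjusted p = 0.138) and Col1a2 at -0.36 ± 0.17 (adjusted p = 0.158), and neither passed the threshold. Col3a1 fell (-0.61 ± 0.20, adjusted p = 0.0493), a call at the edge of the threshold. It ended after the GC correction (-0.51, adjusted p = 0.107) and without DMSO replicate 1, 2 or 4, ROSI replicate 1 or 3 or TBT replicate 2, 3 or 4, DMSO replicate 4 giving the smallest value (-0.43, adjusted p = 0.149). All 3 genes were higher in TBT than in ROSI: Col1a1 (0.91 ± 0.22, adjusted p = 0.00777), Col1a2 (0.52 ± 0.17, adjusted p = 0.0373) and Col3a1 (1.09 ± 0.20, adjusted p = 0.00112). The Col1a2 call was lost without ROSI replicate 1 (adjusted p = 0.0999), ROSI replicate 2 (0.116), TBT replicate 1 (0.125), TBT replicate 2 (0.0595), TBT replicate 3 (0.121) or DMSO replicate 3 (0.0535).

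Types V and XI are minor fibrillar collagens that co-assemble with type I and limit fibril diameter. For Col5a1 the CPM were 205, 190.0, 179 and 216 in DMSO, 149, 138, 155 and 134 in ROSI and 140.1, 138, 154 and 122 in TBT. Both treated groups lay below DMSO with no overlap, at -0.46 ± 0.11 (adjusted p = 0.00741) in ROSI and -0.51 ± 0.11 (adjusted p = 0.0083) in TBT, while TBT and ROSI overlapped (-0.06 ± 0.11, adjusted p = 0.749). The fall in TBT was -0.24 (adjusted p = 0.244) after the GC correction. Col5a2 fell in ROSI (-0.60 ± 0.14, adjusted p = 0.00353), and in TBT it was at -0.28 ± 0.14 (adjusted p = 0.157). The DMSO libraries held Col5a3 at 4.51, 7.49, 6.22 and 7.11 CPM, those of ROSI at 13.0, 5.37, 12.2 and 12.0 and those of TBT at 4.47, 3.67, 5.56 and 5.00. Col5a3, the remaining type V chain, was the 1 fibrillar gene called lower in TBT than in ROSI (-1.18 ± 0.28, adjusted p = 0.00608). That call was lost with the GC correction and without TBT replicate 4 (-0.75, adjusted p = 0.0559). Against DMSO its ROSI value was 0.73 ± 0.27 (adjusted p = 0.0578). Without ROSI replicate 2, the lowest ROSI library, it passed the threshold (0.96, adjusted p = 0.00572), as it did without TBT replicate 4 (adjusted p = 0.0413). Col11a1 averaged 172 ± 20.1 CPM in DMSO against 63.5 ± 9.03 in ROSI and 134 ± 11.5 in TBT. It fell in ROSI (-1.44 ± 0.13, adjusted p = 1.26e-06) and was higher in TBT than in ROSI (1.08 ± 0.13, adjusted p = 2.63e-05), and in TBT against DMSO it was at -0.35 ± 0.13 (adjusted p = 0.0722).

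The largest fold change in the family was that of Col24a1, a fibrillar chain known from bone and cornea. Col24a1 stood at 11.9, 10.5, 6.77 and 13.0 CPM in DMSO, 0.501, 0.474, 0.517 and 0.201 in ROSI and 3.40, 2.12, 3.42 and 3.91 in TBT. The 3 groups did not overlap: DMSO was highest, TBT between, and ROSI lowest, with 226, 64 and 10 counts summed over the 4 libraries of each. The level fell 23.0-fold in ROSI (-4.53 ± 0.37, adjusted p = 4.05e-07), and 3.25-fold in TBT (-1.70 ± 0.27, adjusted p = 0.000885), and TBT exceeded ROSI (2.82 ± 0.42, adjusted p = 0.000151). Per kb, Col24a1 stood at 1.47 ± 0.378 CPM in DMSO against 0.0593 ± 0.0209 in ROSI and 0.450 ± 0.107 in TBT. The sensory receptor genes, whose groups had the same order, stood at 0.100 ± 0.0421, 0.0134 ± 0.00105 and 0.0290 ± 0.00791 CPM per kb, below Col24a1 in each group. Their part in the result was not tested. Col24a1 met the filter in 4 DMSO, 0 ROSI and 4 TBT libraries. It was thus tested because of its DMSO and TBT levels, which favours a low value in ROSI. Col27a1, a fibrillar chain of cartilage, did not pass in any comparison, with means of 29.8 to 36.2 CPM. With the GC correction and without TBT replicate 4, it passed in TBT against DMSO (0.638, adjusted p = 0.0308). Col2a1 and Col11a2, the cartilage chains, were not tested and averaged under 1 CPM in each group.

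**Figure D2:**
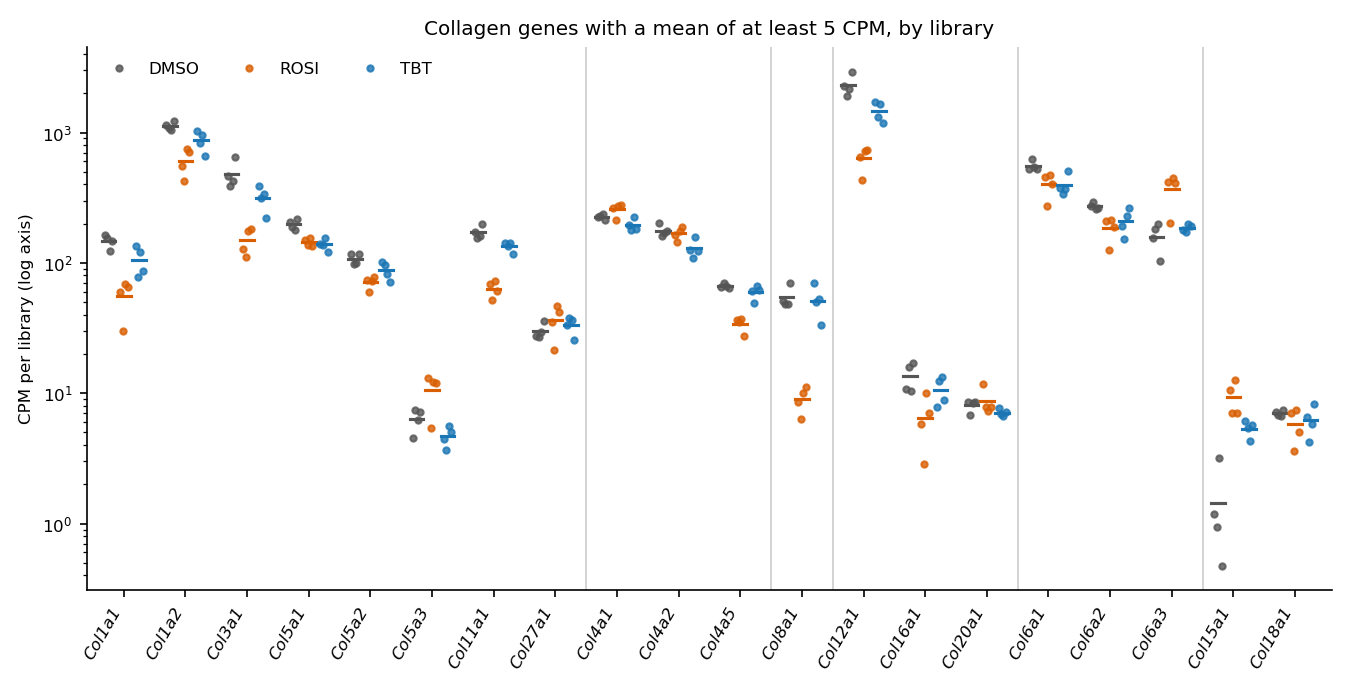
CPM in each library (y axis, log scale) of the collagen genes with a mean of at least 5 CPM (x axis), in 3 groups of 4 points with the group mean as a bar; grey lines part the classes, in the order fibrillar, basement membrane, network, fibril-associated, beaded filament and multiplexin. ROSI lies below DMSO for most fibrillar genes, Col8a1 and Col12a1, and above it for Col6a3 and Col15a1.

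In the basement membrane class, 2 minor chains fell in ROSI, and the main chains did not pass. Levels of Col4a1 were 227, 229.8, 236 and 212 CPM in the DMSO libraries, 264, 214, 274 and 278 in ROSI and 194, 177, 223 and 183 in TBT. For Col4a2 the CPM were 203, 160.3, 168 and 175 in DMSO, 164, 144, 177 and 188 in ROSI and 126, 109, 158 and 124 in TBT. These chains form the common type IV trimer, and their ROSI and DMSO libraries overlapped: Col4a1 was at 0.19 ± 0.12 (adjusted p = 0.299) and Col4a2 at -0.07 ± 0.13 (adjusted p = 0.767). The DMSO libraries held Col4a5 at 65.3, 70.0, 65.9 and 63.8 CPM, those of ROSI at 36.4, 35.2, 36.9 and 27.7 and those of TBT at 60.9, 48.8, 66.7 and 61.8. Col4a5, a chain of the minor trimers, fell 1.94-fold in ROSI (-0.96 ± 0.13, adjusted p = 4.94e-05), with no overlap, and was higher in TBT than in ROSI (0.81 ± 0.13, adjusted p = 0.000419). TBT against DMSO gave -0.15 ± 0.13 (adjusted p = 0.436) for it. Col4a6, its partner chain, averaged 5.03 ± 0.841 CPM in DMSO against 2.28 ± 0.786 in ROSI and 4.48 ± 1.92 in TBT, and fell in ROSI (-1.18 ± 0.36, adjusted p = 0.0237). That call was lost without DMSO replicate 1 (adjusted p = 0.0635), ROSI replicate 3 (0.092) or DMSO replicate 4 (0.0598). Its call in TBT against ROSI (1.04 ± 0.36, adjusted p = 0.047) was lost in 11 of the 12 fits that left out 1 library, with an adjusted p of up to 0.182 without TBT replicate 1, and held without TBT replicate 4 (adjusted p = 0.00461).

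In TBT, Col4a2 fell (-0.45 ± 0.13, adjusted p = 0.033) against DMSO, and Col4a1 was lower than in ROSI (-0.41 ± 0.12, adjusted p = 0.0226). Neither held after the GC correction: Col4a2 was then at -0.15 (adjusted p = 0.564) and Col4a1 at -0.13 (adjusted p = 0.511). The Col4a2 call was also lost without DMSO replicate 1 (adjusted p = 0.107) or 4 (0.056) and without TBT replicate 1 (0.0838) or 2 (0.106), and the Col4a1 call without ROSI replicate 1 (0.0604), TBT replicate 1 (0.0595) or TBT replicate 2 (0.065). In TBT against ROSI, Col4a2 lay on the same side as Col4a1 and just missed the threshold (-0.38 ± 0.13, adjusted p = 0.05005). It passed in 2 of the 12 fits without 1 library and in 5 of 12 other settings, such as DESeq2 (adjusted p = 0.026). With the GC correction it did not pass. Col4a3 and Col4a4, the chains known from the glomerular membrane, averaged 1.08 to 4.00 CPM and passed in no comparison. Their log2 fold changes in ROSI against DMSO were -0.95 ± 0.34 (adjusted p = 0.0543) and -1.07 ± 0.42 (adjusted p = 0.0815). Some fits without 1 library called them, Col4a3 without TBT replicate 1, 2 or 4 (adjusted p = 0.0351, 0.0432 and 0.0486) and Col4a4 without ROSI replicate 2 (adjusted p = 0.039). In TBT against DMSO, Col4a4 was at -1.34 ± 0.45 (adjusted p = 0.0513) and passed without ROSI replicate 1 or 2 (adjusted p = 0.0496 and 0.0451) or TBT replicate 4 (0.0374). Col4a4 met the filter in 4 DMSO, 1 ROSI and 0 TBT libraries. It was thus tested because of its DMSO level, which favours a fall against DMSO, and these fits are no support for one. Type IV genes lie in head-to-head pairs. The RefSeq starts of Col4a1 and Col4a2 are 21 bases apart on opposite strands of chromosome 8. Those of Col4a5 and Col4a6 are 1343 bases apart on chromosome X. Exons of Col4a1 and Col4a2 overlap by 22 bases, 0.295% and 0.332% of their exon length, where reads without strand cannot be assigned.

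Within each library, the ratio of chains per kb does not depend on scaling, but the GC dependence of TBT replicates 1 to 3 was not removed from it. Transcript GC content is 51.45% for Col4a5, 57.69% for Col4a1, 54.49% for Col6a3 and 56.66% for Col6a1. Col4a5 over Col4a1 was 0.297 ± 0.0116 in DMSO against 0.136 ± 0.027 in ROSI and 0.310 ± 0.026 in TBT (mean ± SD, n = 4), and all ROSI libraries lay below all others. Col4a1 over Col4a2 was 1.26 ± 0.147, 1.49 ± 0.0602 and 1.48 ± 0.0854. For type VI, Col6a3 over Col6a1 was 0.116 ± 0.0278 in DMSO, 0.364 ± 0.0451 in ROSI and 0.192 ± 0.0289 in TBT. The 3 groups did not overlap in this ratio, which ran from 0.0793 to 0.147 in DMSO, 0.153 to 0.220 in TBT and 0.301 to 0.407 in ROSI. Col1a2 over Col1a1 was 8.52 ± 0.895, 12.5 ± 2.29 and 9.40 ± 1.68. Type I collagen is mostly made of 2 Col1a1 chains and 1 Col1a2 chain, so the counts do not follow the protein's chain ratio, and the GC contents of the transcripts are 58.9% for Col1a1 and 55.7% for Col1a2. Other ratios were computed too, with means in the order DMSO, ROSI and TBT. Col3a1 over Col1a1 was 3.52, 2.97 and 3.27, and Col12a1 over Col1a1 8.17, 6.06 and 7.3. Col5a1 over Col5a2 was 1.45, 1.61 and 1.25, and in these ratios all groups overlapped. In Col6a1 over Col6a2 (2.31, 2.48 and 2.18), ROSI lay above DMSO and TBT overlapped both. Col6a3 rose and Col4a5 fell in ROSI, so their ratios are no separate support for those calls. All these ratios are descriptions and were not tested.

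**Figure D3:**
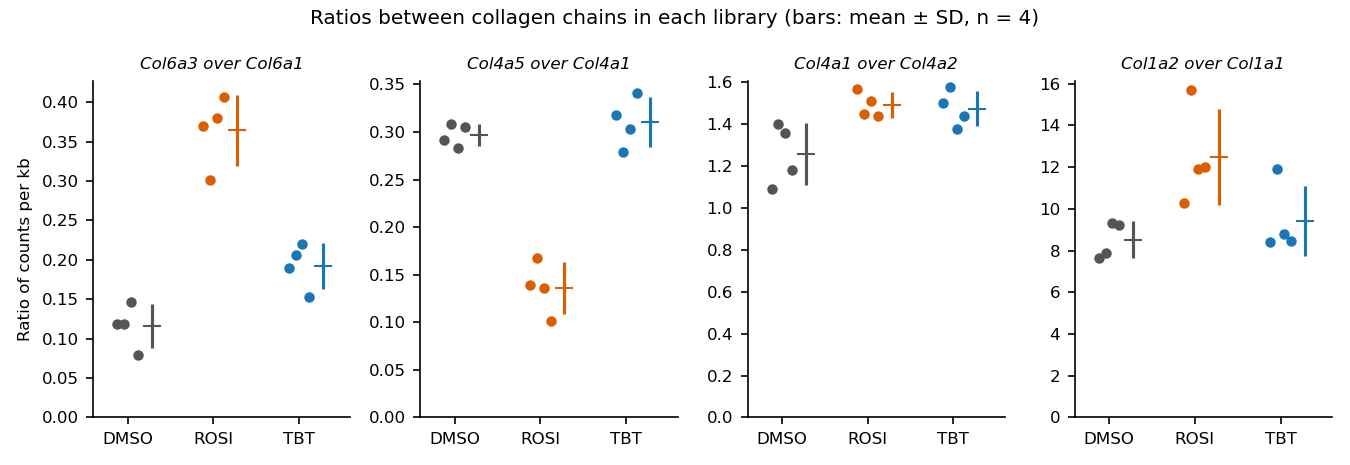
Ratio of counts per kb between 2 chains (y axis, from 0) in each library, by group (x axis); points are libraries and the bars beside them the mean ± SD (n = 4). Col6a3 over Col6a1 is highest in ROSI at 0.364, and Col4a5 over Col4a1 is lowest there at 0.136.

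The network class turned on Col8a1, a short-chain collagen of vessel walls and the membrane under the corneal endothelium. Col8a1 stood at 51.1, 48.0, 47.9 and 70.5 CPM in DMSO, 8.52, 6.32, 9.96 and 11.2 in ROSI and 69.5, 49.8, 52.6 and 33.5 in TBT. DMSO and TBT overlapped, while all ROSI libraries lay below both. The level was 6.04-fold lower in ROSI than in DMSO (-2.59 ± 0.23, adjusted p = 8.63e-07), and 5.71-fold higher in TBT than in ROSI (2.51 ± 0.23, adjusted p = 1.3e-06). In TBT against DMSO the value was -0.08 ± 0.20 (adjusted p = 0.807), which does not show that the levels were equal. Levels of Col10a1 were 5.46, 2.81, 4.14 and 3.16 CPM in the DMSO libraries, 3.76, 2.53, 3.23 and 2.01 in ROSI and 8.04, 4.25, 2.78 and 3.70 in TBT. Col10a1, known from hypertrophic cartilage, did not pass in any comparison. For Col8a2 the CPM were 0, 0, 0.138 and 0.316 in DMSO, 0, 0, 0.129 and 0 in ROSI and 0, 0, 0 and 0.435 in TBT. Col8a2, the partner chain of Col8a1, had 6 counts in all libraries together and was not tested.

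Of the fibril-associated collagens, 3 fell in ROSI and 2 of them also in TBT. The DMSO libraries held Col12a1 at 2260, 1894, 2151 and 2929 CPM, those of ROSI at 645, 435, 725 and 731 and those of TBT at 1704, 1304, 1660 and 1182. Col12a1, which bridges type I fibrils in tissues under tension, was the gene with the most collagen counts, and its 3 groups did not overlap. It was 3.64-fold lower in ROSI (-1.86 ± 0.19, adjusted p = 2.43e-06), and 1.58-fold lower in TBT (-0.66 ± 0.18, adjusted p = 0.0249), and TBT exceeded ROSI (1.21 ± 0.19, adjusted p = 0.000229). The TBT against DMSO call was lost without DMSO replicate 1 (adjusted p = 0.0555), DMSO replicate 4 (0.073) or TBT replicate 2 (0.0759). Col14a1 stood at 8.55, 6.32, 9.95 and 8.53 CPM in DMSO, 3.01, 2.53, 3.23 and 3.01 in ROSI and 5.00, 2.12, 2.57 and 4.13 in TBT. Col14a1, a relative of Col12a1 on fibril surfaces, fell in ROSI (-1.50 ± 0.27, adjusted p = 0.000619) and in TBT (-1.27 ± 0.27, adjusted p = 0.00682), and both treated groups lay below DMSO. Levels of Col16a1 were 10.7, 15.9, 10.4 and 17.1 CPM in the DMSO libraries, 5.77, 2.84, 9.96 and 7.02 in ROSI and 7.86, 12.4, 13.3 and 8.92 in TBT. Col16a1 fell in ROSI (-1.06 ± 0.30, adjusted p = 0.0173), and this call was lost without DMSO replicate 4 (-0.92, adjusted p = 0.064) or ROSI replicate 2 (-0.80, adjusted p = 0.052).

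For Col20a1 the CPM were 8.55, 6.79, 8.43 and 8.53 in DMSO, 11.8, 7.90, 7.24 and 7.82 in ROSI and 7.69, 6.95, 6.63 and 7.18 in TBT. Col20a1 overlapped in every comparison and passed in none. The DMSO libraries held Col9a3 at 1.43, 2.34, 1.93 and 4.43 CPM, those of ROSI at 1.76, 0.948, 0.776 and 1.60 and those of TBT at 3.22, 5.60, 0.856 and 3.70. Col9a3, a chain of type IX cartilage collagen, was higher in TBT than in ROSI (1.47 ± 0.50, adjusted p = 0.0437), though the libraries overlapped. That call was lost in 8 of the 12 fits that left out 1 library, with an adjusted p of up to 0.157 without TBT replicate 2, and held without DMSO replicate 1 or 4 or TBT replicate 3 or 4. Col9a3 met the filter in 3 DMSO, 0 ROSI and 3 TBT libraries, which favours a low value in ROSI. Exons of Col9a3 share 234 bases, 6.07% of their length, with Tcfl5 on the other strand. Col9a1, Col9a2, Col19a1 and Col22a1 were not tested and averaged under 1 CPM in each group.

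Beaded filament chains went in different directions in ROSI. Col6a1 stood at 529, 622, 545 and 526 CPM in DMSO, 458, 274, 475 and 405 in ROSI and 378, 337, 367 and 505 in TBT. Levels of Col6a2 were 272, 295, 259 and 264 CPM in the DMSO libraries, 211, 125, 215 and 188 in ROSI and 192, 153, 227 and 262 in TBT. Col6a2 fell in ROSI (-0.56 ± 0.17, adjusted p = 0.0272), while Col6a1, whose ROSI libraries all lay below DMSO, missed the threshold at -0.46 ± 0.17 (adjusted p = 0.056). The Col6a2 call was lost without DMSO replicate 1 (adjusted p = 0.0565), DMSO replicate 2 (0.0718), ROSI replicate 2 (0.0885) or ROSI replicate 4 (0.0595), and Col6a1 passed without TBT replicate 4 (adjusted p = 0.02), with the GC correction (0.0188), with DESeq2 (0.0495), with upper-quartile factors (0.0473), with no filter on low counts (0.0436) and with only the 2 groups compared (0.0347). For Col6a3 the CPM were 155, 181, 198 and 103 in DMSO, 418, 203, 444 and 407 in ROSI and 177, 171, 199 and 191 in TBT. Col6a3, the long chain whose cleaved end is released by fat cells as endotrophin, was 2.31-fold higher in ROSI than in DMSO (1.21 ± 0.22, adjusted p = 0.00057). All ROSI libraries lay above all DMSO libraries, and ROSI replicate 2 was the lowest of them. TBT was lower than ROSI (-0.99 ± 0.22, adjusted p = 0.00358), and TBT against DMSO gave 0.22 ± 0.22 (adjusted p = 0.521). In TBT against DMSO, Col6a1 was at -0.49 ± 0.17 (adjusted p = 0.0578) and Col6a2 at -0.39 ± 0.17 (adjusted p = 0.135). Without TBT replicate 4 both passed, at -0.61 (adjusted p = 0.00582) and -0.50 (adjusted p = 0.0252), and Col6a1 also passed without ROSI replicate 2 (adjusted p = 0.0291). Of 12 other settings, Col6a1 passed in 4. These were upper-quartile factors (adjusted p = 0.0389), DESeq2 (0.0427), no filter on low counts (0.0353) and a mean of at least 5 CPM (0.0492). With the GC correction as well as without TBT replicate 4, neither passed, at -0.32 (adjusted p = 0.11) and -0.23 (adjusted p = 0.272). Col6a4, Col6a5 and Col6a6 were not tested and averaged under 1 CPM in each group.

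The multiplexins carry interrupted helices and lie in or beside basement membranes. The DMSO libraries held Col15a1 at 1.19, 0.936, 3.18 and 0.474 CPM, those of ROSI at 10.5, 7.11, 12.5 and 7.02 and those of TBT at 6.08, 5.40, 4.28 and 5.65. All ROSI and TBT libraries exceeded all DMSO libraries. Col15a1 rose 5.99-fold in ROSI (2.58 ± 0.39, adjusted p = 0.000109), and 3.45-fold in TBT (1.79 ± 0.41, adjusted p = 0.00949), and TBT against ROSI gave -0.80 ± 0.33 (adjusted p = 0.0899). Without DMSO replicate 3, the highest DMSO library, the log2 fold changes were 3.48 in ROSI and 2.66 in TBT, and TBT against ROSI passed (-0.82, adjusted p = 0.0347). The DMSO level rests on 35 counts over 4 libraries. Col15a1 met the filter in 1 DMSO, 4 ROSI and 4 TBT libraries. It was thus tested because of its levels in the treated groups, which favours a rise against DMSO. Col18a1 stood at 7.13, 6.79, 6.63 and 7.43 CPM in DMSO, 7.02, 3.63, 7.37 and 5.02 in ROSI and 6.61, 4.25, 5.78 and 8.26 in TBT. Col18a1, whose cleaved end is endostatin, passed in no comparison.

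Levels of Col7a1 were 5.94, 5.15, 5.25 and 4.43 CPM in the DMSO libraries, 4.01, 3.16, 4.79 and 2.61 in ROSI and 3.04, 5.98, 4.71 and 3.48 in TBT. Col7a1, which anchors skin epithelium, passed in no comparison, and neither did Col23a1, a transmembrane collagen. For Col23a1 the CPM were 2.14, 4.21, 0.83 and 2.21 in DMSO, 1.76, 2.05, 1.81 and 1.40 in ROSI and 1.25, 0.579, 0.214 and 2.17 in TBT. Without TBT replicate 4, Col23a1 passed in TBT against DMSO (-1.62, adjusted p = 0.0417), but not with the GC correction too (-1.38, adjusted p = 0.0869). The DMSO libraries held Col28a1 at 1.19, 3.04, 1.38 and 1.90 CPM, those of ROSI at 0.752, 0.158, 0 and 0.401 and those of TBT at 0.536, 0.193, 0.214 and 0.217. Col28a1 was not tested, with 40 counts in DMSO against 6 in ROSI and 6 in TBT. Like that of the other untested collagens, its direction is no result about collagens. Col13a1, Col17a1, Col25a1 and Col26a1 were not tested, with group means of at most 1.45 CPM.

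Summed over the family, collagen CPM was 6166 ± 603 in DMSO against 3248 ± 641 in ROSI and 4443 ± 531 in TBT (mean ± SD, n = 4), and the groups did not overlap. These were 0.631%, 0.330% and 0.424% of counts. Fibrillar genes held 36.9 ± 0.878% of collagen CPM in DMSO against 35.1 ± 1.82% in ROSI and 38.1 ± 3.12% in TBT. The fibril-associated share was 37.8 ± 3.46%, 20.1 ± 0.718% and 33.3 ± 1.94%, and rested almost wholly on Col12a1. The beaded filament share was 16.2 ± 2.79%, 29.2 ± 2.77% and 18.1 ± 4.31%, and the basement membrane share 7.86 ± 0.844%, 14.6 ± 1.84% and 8.84 ± 0.761%. Their summed CPM moved less: basement membrane genes summed to 481 ± 20.4 in DMSO against 465 ± 44.7 in ROSI and 392 ± 47.8 in TBT, and beaded filament genes to 989 ± 86.7, 957 ± 242 and 791 ± 125. The larger shares of these classes in ROSI thus stood beside a smaller total. ROSI replicate 2 had the lowest collagen sum of all libraries, 2320 CPM, against 3348 to 3762 in the other ROSI libraries. The sums are descriptions and carry no test.

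**Figure D4:**
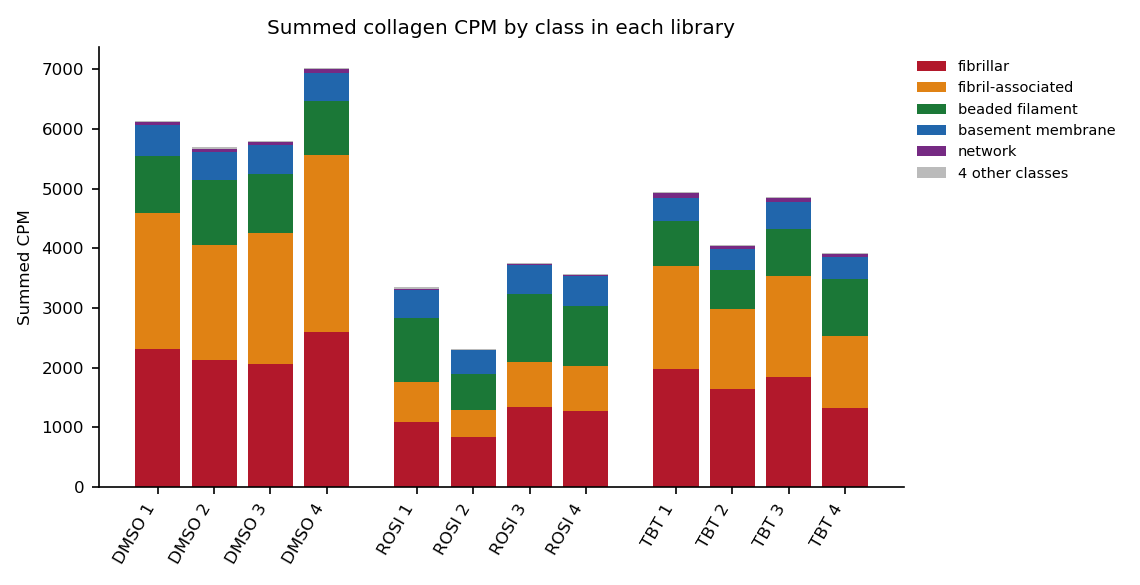
Summed collagen CPM (y axis, from 0) in each library (x axis), stacked by class; the 4 classes with the smallest sums are drawn together in grey. Bars reach 5695 to 7024 in DMSO, 2320 to 3762 in ROSI and 3920 to 4945 in TBT, and the fibril-associated part is smallest in ROSI.

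Correction for GC content changed mainly the TBT results. With it, 4 collagens passed in TBT against DMSO (3 lower, 1 higher) where 7 had without it (6 lower, 1 higher): Col24a1, Col12a1 and Col14a1 stayed lower and Col15a1 higher, and Col3a1, Col5a1 and Col4a2 did not pass. The 4 were 13.8% of the collagens, against 14.6% of all genes, and without the correction the shares were 24.1% and 15.2%. With the correction and the replicate number as a block, 4 passed again, 13.8% against 9.99% of all genes. These shares rest on few genes and are no result about the family. With the correction alone, the median log2 fold change of the 29 genes was -0.15, against -0.35 without it. In ROSI against DMSO the corrected count was 17, or 58.6% against 25.7% of all genes, including all 16, with a median of -0.57. In TBT against ROSI it was 13, or 44.8% against 21.6% of all genes, 11 higher and 2 lower, including 12 of the 13 without it. Col4a1 left that list and Col16a1 joined it, at 1.055 (adjusted p = 0.027) against 0.705 (adjusted p = 0.105) without the correction. Col16a1 also passed there with the correction and without TBT replicate 4 (1.219, adjusted p = 0.00582). Without TBT replicate 4, 10 collagens passed in TBT against DMSO, 9 lower and 1 higher: Col3a1 left the list, and Col6a1, Col6a2, Col4a4 and Col23a1 joined it. The 10 were 34.5% of the collagens, and the share of all genes that passed was 32.6%. With the GC correction and without TBT replicate 4, none of those 4 that joined passed, and 5 collagens did, 17.2% against 28.6% of all genes. Without DMSO replicate 1, DMSO replicate 4 or TBT replicate 2, the count was 4, or 13.8%, against 8.12%, 11.5% and 9.17% of all genes.

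**Figure D5:**
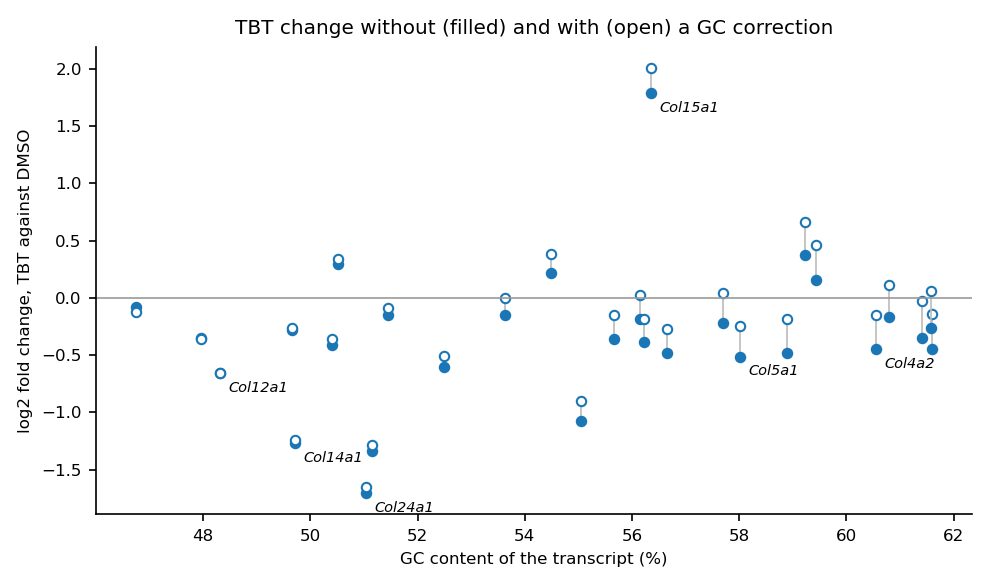
Log2 fold change in TBT against DMSO (y axis) of the 29 tested collagens against the GC content of their transcripts in percent (x axis), without (filled) and with (open) a GC correction, joined by a line for each gene. The genes with the lowest GC content hardly move, while GC-rich genes such as Col5a1 and Col4a2 move up towards 0, and Col24a1, Col14a1 and Col12a1 stay low.

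Genes that act on collagen chains were counted from 4 lists drawn from textbook knowledge. Procollagen processing and crosslinking, the steps outside the cell that trim the chains and join fibrils, had 11 tested genes, of which 6 fell and 0 rose in ROSI. Of all genes tested, 12.6% fell and 10% rose in ROSI, 7.03% fell and 8.22% rose in TBT, and 12.8% were higher and 11.1% lower in TBT than in ROSI, and the list counts are to be read beside these shares. Adamts2 averaged 276 CPM in DMSO against 118 in ROSI and 202 in TBT. Adamts2 removes the amino-terminal propeptide, and it fell in ROSI (-1.22 ± 0.12, adjusted p = 2.43e-06) and in TBT (-0.45 ± 0.12, adjusted p = 0.0223). Bmp1, which removes the carboxy-terminal one, was lower, at -0.99 ± 0.15 (adjusted p = 0.000103) in ROSI and -1.09 ± 0.15 (adjusted p = 0.00025) in TBT. Pcolce, its enhancer, was lower, at -1.23 ± 0.22 (adjusted p = 0.00045) and -0.73 ± 0.21 (adjusted p = 0.0315). In TBT 4 of the 11 fell and 0 rose, and TBT against ROSI gave 5 higher and 1 lower. Lox, the lysyl oxidase that starts crosslinks, averaged 2807 CPM in TBT and 1102 in ROSI and was higher in TBT (1.35 ± 0.21, adjusted p = 0.000265).

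Folding and modification, the steps inside the endoplasmic reticulum, had 23 tested genes, of which 3 rose and 3 fell in ROSI, 1 rose and 2 fell in TBT, and 2 were higher and 6 lower in TBT than in ROSI. The counts against DMSO were near the shares of all genes and are no result about the list. The 24 genes measured summed to 3686 to 4883 CPM in DMSO, 6831 to 8427 in ROSI and 4031 to 6059 in TBT. ROSI sums thus lay above those of both other groups, while the median log2 fold change in ROSI against DMSO was 0.036. Hsp90b1, a general chaperone, rose in ROSI (1.46 ± 0.25, adjusted p = 0.000314), and P4ha3, a prolyl hydroxylase subunit, fell (-2.21 ± 0.40, adjusted p = 0.000611). Plod2, the lysyl hydroxylase of the telopeptides, rose in TBT (0.73 ± 0.21, adjusted p = 0.0295), while Plod3 fell (-0.67 ± 0.15, adjusted p = 0.0083) and the cyclophilin Ppib (-0.92 ± 0.22, adjusted p = 0.0128). Of 9 collagen receptor and uptake genes, 6 fell and 0 rose in ROSI, among them the integrin chains Itga1 (-1.03 ± 0.15, adjusted p = 0.000104) and Itga11 (-1.17 ± 0.22, adjusted p = 0.00076) and the uptake receptor Mrc2 (-0.66 ± 0.13, adjusted p = 0.0015). In TBT 2 fell and 1 rose, Itga1 (0.51 ± 0.15, adjusted p = 0.0301), and against ROSI 3 were higher and 0 lower. Of 6 breakdown genes 2 fell and 1 rose in ROSI, and 2 fell in TBT. Mmp2, a gelatinase, fell in both, at -2.14 ± 0.24 (adjusted p = 7.09e-06) in ROSI and -2.35 ± 0.25 (adjusted p = 2.6e-05) in TBT. So did Fap, a surface protease, at -2.61 ± 0.38 (adjusted p = 7.3e-05) and -1.10 ± 0.33 (adjusted p = 0.0326). In TBT against ROSI 1 breakdown gene was higher and 2 were lower. The 8 breakdown genes measured summed to 160.1 to 195.8 CPM in DMSO, 140.6 to 211.6 in ROSI and 95.73 to 121.8 in TBT. Their sums in DMSO and ROSI thus overlapped.

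Markers of several cell types that could be in the culture differed in level between the groups. The 8 adipocyte markers summed to 988 to 1977 CPM in DMSO against 4312 to 5723 in ROSI and 2152 to 3274 in TBT, and 6 rose and 1 fell in ROSI, while in TBT 3 rose and 2 fell (Adipoq and Cfd). The 10 marrow stroma markers summed to 3170 to 4208, 1472 to 1667 and 2532 to 3391, with 4 of 9 tested falling in ROSI and 3 in TBT. Smooth muscle and pericyte markers summed to 712 to 914, 342 to 392 and 623 to 1080, with 3 of 6 falling in ROSI and Myh11 rising in TBT. The osteoblast sum, 520 to 772, 224 to 325 and 335 to 492, came from Spp1, Runx2 and Alpl, while the defining Bglap, Bglap2, Ibsp, Dmp1 and Sp7 averaged at most 0.322 CPM. The chondrocyte sum, 193 to 220.1 CPM in DMSO, 127 to 176 in ROSI and 190.5 to 225 in TBT, came mainly from Sox5 and Sox9, and Sox5 fell in ROSI (-0.71 ± 0.17, adjusted p = 0.00608). Matn1 stood at 0 in all libraries, and the group means of Acan were at most 0.308 CPM. The endothelial sum was low and did not overlap between DMSO and ROSI, at 8.08 to 10.5, 3.26 to 5.21 and 5.21 to 8.77 CPM, with Tie1 at 0 in all libraries. Tendon markers summed to 12.0 to 29.0, 4.42 to 16.2 and 6.75 to 17.1 CPM, and epithelial markers to 0.950 to 2.34, 0.259 to 0.752 and 0 to 0.435. Macrophage sums overlapped between all groups, at 23.6 to 27.1, 18.7 to 30.3 and 18.8 to 34.6 CPM. The marrow stroma, smooth muscle, chondrocyte, endothelial and tendon sums of TBT overlapped with those of DMSO. The part of these shifts in the collagen results was not tested.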

How the data were processed

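RNA of 12 libraries was rRNA-depleted and read as single 50 nt SOLiD reads without strand, per the labels' protocols. The authors deposited raw counts for 23955 gene symbols. A regularized-log table, on a log2 scale, was deposited too and entered 1 alternative only. The submitters' processing notes name the build mm9 and FastQC, SAMtools and DESeq2. Aligner, counter and annotation were not given in the sources used here. Without strand, reads of overlapping genes cannot be told apart.

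The test was edgeR 4.0.16 in R 4.3.3. The filterByExpr rule (minimum count 10) left 12323 genes, which were scaled with TMM and fitted in 1 quasi-likelihood model (glmQLFit, glmQLFTest) over all 12 libraries without covariates. P-values were adjusted by the Benjamini-Hochberg method over all genes, with a threshold of 0.05. SE is the log2 fold change over the root of its F statistic. Transcript length and GC content came from the longest protein-coding GENCODE M21 transcript (GRCm38). The GC correction was an offset per library, a spline on GC content with 5 degrees of freedom. Totals of 4027152 to 7474654 counts per library limit the precision of the low genes. No library was a copy of another: the lowest chi-square over its degrees of freedom within a group was 4.66.

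Members, classes and lists were chosen with earlier results of these data known. Values in every library are given for the 3 members of highest mean CPM in each of the fibrillar, basement membrane, network, fibril-associated and beaded filament classes and the 1 of highest mean in each other class, and for the 5 largest increases and 5 largest decreases among members past the threshold in each comparison. From each list up to 3 members past the threshold with the smallest p are named for a comparison. Other genes named were chosen after their values were seen. Alternatives used DESeq2 1.42.0, limma 3.58.1, other scalings and filters, a replicate block, only the 2 groups compared, the GC correction and each library left out; leaving out Rn45s, and the GC correction without TBT replicate 4, were added after the data were seen. The code was tested on simulated counts.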

Additional observations from a re-analysis of the deposited data

Results flagged for a closer look

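In each group of 4 libraries, the highest or lowest library was compared with the rest by Dixon's ratio. Of 105 groups examined, 6 had a library far from the others, and chance alone gives about 1 in 20, or 5.25. In ROSI, replicate 2 was lowest for Col6a3 at 203 CPM (the others 407 to 444) and for Col5a3 at 5.37 CPM (the others 12 to 13), and replicate 4 was lowest for Col24a1 at 0.201 CPM (the others 0.474 to 0.517). Col8a1 was highest in DMSO replicate 4 at 70.5 CPM (the others 47.9 to 51.1). Col20a1 was lowest in DMSO replicate 2 at 6.79 CPM (the others 8.43 to 8.55) and highest in ROSI replicate 1 at 11.8 CPM (the others 7.24 to 7.9). Without ROSI replicate 2 the log2 fold change of Col6a3 in ROSI against DMSO was 1.41, against 1.21 with it, and that of Col5a3 was 0.96, against 0.73.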

How the results depend on the processing

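In ROSI against DMSO the count of collagens past the threshold was 16 (55.2% against 22.6% of all genes), and 14 to 19 with 1 library left out. Those were 48.3% to 65.5% of the collagens, beside 17.7% to 28% of all genes. In TBT against DMSO the count was 7 (24.1% against 15.2%), and 4 to 10 with 1 library left out. It was 4 (13.8%) without DMSO replicate 1, DMSO replicate 4 or TBT replicate 2, against 8.12%, 11.5% and 9.17% of all genes. It was 10 (34.5%) without TBT replicate 4, against 32.6%. It was 4 with the GC correction and 4 with that correction and the replicate block together, 3 lower and 1 higher in each, which is 13.8% of the collagens against 14.6% and 9.99% of all genes. In TBT against ROSI the count was 13 (10 higher, 3 lower), 44.8% against 23.9% of all genes. With 1 library left out it was 9 to 14, or 31% to 48.3%, beside 14% to 38.2% of all genes. The 14 without TBT replicate 4 were 48.3% against 38.2%. With upper-quartile factors it was 12 (8 higher, 4 lower), 41.4% against 23.4%. Of 2057 values of single collagens under the alternatives, 855 were of called genes, of which 773 kept call and direction and 82 lost the call. Of the other 1202, 49 gained a call. The value that reversed was Col5a1 in TBT against ROSI, at 0.36 (adjusted p = 0.0185) with the GC correction and without TBT replicate 4, and the cause was not tested. A gene without a call in either fit was counted as unchanged whatever its sign. Over 12 pairs of libraries with the same replicate number, deviations from the group means correlated between -0.432 and 0.138, and 1 matched its own number best, so the numbers were not taken to pair the libraries. With the replicate number as a block the counts were 16, 6 and 10 in ROSI against DMSO, TBT against DMSO and TBT against ROSI. These were 55.2%, 20.7% and 34.5% of the collagens, against 18.6%, 9.41% and 17.5% of all genes. With the block and the GC correction, Col5a3 in TBT against ROSI was at -0.81 (adjusted p = 0.0621). Depth limits the 15 untested genes, which had at most 81 counts in all.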
